A study of Mus musculus with 40 samples.

Results

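The set described here is 10 genes, the cathepsins Ctsa, Ctsb, Ctsc, Ctsd, Ctsh, Ctsk, Ctsl, Ctss and Ctsz and the lysosomal membrane gene Lamp1. They were picked by symbol, and each matched 1 Ensembl gene among the 55359 gene identifiers counted. All 10 passed the filter on low counts and were among the 15373 genes tested. Hepatic RNA-Seq counts came from 40 male C57BL/6 mice that carried no allele or transgene named in the labels. The 8 groups of 5 mice received by gavage, every 4 days and 7 times in all, either sesame oil vehicle or TCDD in that oil at 30, 10, 3, 1, 0.3, 0.1 or 0.03 μg/kg. TCDD, in full 2,3,7,8-tetrachlorodibenzo-p-dioxin, is a long-lived dioxin that binds and activates the transcription factor AhR (aryl hydrocarbon receptor). By the labels the mice were 30 days old at the start and 58 days old at the end. Each library came from a piece of frozen whole liver of 1 mouse.

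Lysosomes are acidic organelles in which proteins, lipids and sugars delivered by endocytosis, phagocytosis and autophagy are broken down. Cathepsins are their main proteases: Ctsd encodes an aspartic endopeptidase, Ctsa a serine carboxypeptidase, and the others here encode cysteine proteases made as inactive precursors that are processed at low pH. LAMP1 is a heavily glycosylated protein of the lysosomal membrane that is often used as a marker of the organelle. In liver, hepatocytes hold many lysosomes, and Kupffer cells, the resident macrophages, are rich in them. Fewer cells of a type and less RNA per cell cannot be told apart in whole liver RNA.

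Libraries held 15.5 M to 21.0 M counts assigned to genes, with a median of 17.5 M. Levels are given as CPM, the counts of a gene per 1 M counts of its library after TMM scaling (which sets library sizes by the bulk of the genes, using a trimmed mean), and group means carry the SD between mice. The scaling factors rose from a mean of 0.928 in vehicle to 1.31 at 30 μg/kg. Hepatocyte identity was present in every group. The summed CPM of 8 hepatocyte markers, albumin among them, was 102540 to 126548 in vehicle and 30544 to 63084 at 30 μg/kg, with none of the 8 at 0. In the library of replicate 1 at 30 μg/kg, several members lay far from the other 4 mice of that dose, so some results at 30 μg/kg are also given without it. That library had 6230 CPM of Cyp1a1, the classical AhR target, where the other 4 had 4750 to 6376 and the vehicle mice 0.979 to 2.33. Cyp1a1 was already 5368 to 6914 CPM at 1 μg/kg and 5629 to 7424 CPM at 10 μg/kg. This gene thus set the library apart from vehicle but could not tell it from libraries of those doses.

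The promoters of 8 of the 10 genes were found in a table of mouse RefSeq start sites on GRCm38.p6, and 3 are shown because they span the range of an element long tied to lysosomal genes. Transcription factors of the MiT/TFE family, TFEB among them, bind sequences around the E-box core CACGTG. The 250 bases before the start are printed 5′ to 3′, in lower case with each CACGTG in capitals.
Lamp1, chr8:13158911-13159160, plus strand: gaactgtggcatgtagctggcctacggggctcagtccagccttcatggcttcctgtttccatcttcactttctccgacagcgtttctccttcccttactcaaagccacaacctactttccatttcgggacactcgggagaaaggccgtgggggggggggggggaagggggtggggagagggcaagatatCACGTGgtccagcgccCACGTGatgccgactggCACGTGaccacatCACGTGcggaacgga
Ctsd, chr7:142387828-142388077, minus strand: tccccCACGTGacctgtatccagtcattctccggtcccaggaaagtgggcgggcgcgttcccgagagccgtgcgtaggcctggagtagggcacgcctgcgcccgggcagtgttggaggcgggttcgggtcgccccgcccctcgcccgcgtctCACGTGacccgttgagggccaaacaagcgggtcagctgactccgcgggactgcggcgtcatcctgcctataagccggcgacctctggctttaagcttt
Ctss, chr3:95526536-95526785, plus strand: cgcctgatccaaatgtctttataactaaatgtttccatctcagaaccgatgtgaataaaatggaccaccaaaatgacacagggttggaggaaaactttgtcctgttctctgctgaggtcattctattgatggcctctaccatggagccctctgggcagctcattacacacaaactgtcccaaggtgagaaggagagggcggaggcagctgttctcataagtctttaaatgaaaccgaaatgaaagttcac
The Lamp1 window held 4 cores, at 61, 45, 28 and 15 bases before the start, and the Ctsd window held 2, at 245 and 98 bases. Ctsl had 1 core at 236 bases, and the second of 2 Ctsa start sites had 1 at 12 bases. None was found in the windows of Ctss, Ctsk, Ctsz or Ctsc. The core reads the same on both strands, and it was found in 6.02% of 32851 windows of that length, at least 2 times in 0.429% and at least 4 times in 0.0213%. The longer form TCACGTGA, which contains the core, was in the windows of Ctsd and the second Ctsa site and in 0.785% of all. The core of the dioxin response element, GCGTG on either strand, was in the windows of Ctsd, Ctsc and both Ctsa sites and in 28.2% of all. These letters are a description of the windows and not of binding.

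Ctss rose first and furthest. Ctss encodes cathepsin S, a cysteine endopeptidase of antigen-presenting cells that cleaves the invariant chain of MHC class II molecules. Ctss CPM in the 5 vehicle mice was 22.0, 16.6, 13.3, 16.2 and 16.0. At 1 μg/kg the 5 mice had 34.6, 36.6, 32.1, 33.5 and 37.3 CPM of Ctss. All 5 lay above all 5 vehicle mice, as was so for 4.33% of all genes tested. Ctss CPM was 28.3, 44.0, 26.0, 45.7 and 49.6 at 3 μg/kg. It was 73.3, 62.2, 82.3, 55.8 and 62.2 CPM at 10 μg/kg. The 30 μg/kg mice had 73.9, 225, 227, 233 and 216 CPM of Ctss. Every mouse from 1 μg/kg upward exceeded every vehicle mouse, and the lowest value at 30 μg/kg, that of replicate 1, lay within the range of the 10 μg/kg mice. Of all genes tested, 5.23%, 12.9% and 19.7% had all 5 mice above all vehicle mice at 3, 10 and 30 μg/kg. Mean Ctss was 16.8 ± 3.18 CPM in vehicle and 195 ± 68.0 CPM at the highest dose (SD, n = 5).

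The fold changes of Ctss passed the call used throughout, an adjusted p under 0.05 and a fold of at least 1.5 in edgeR's quasi-likelihood test, from 1 μg/kg upward. The log2 fold change of Ctss was 1.05 ± 0.22 (SE) at 1 μg/kg with an adjusted p of 0.00210, and 1.20 ± 0.22 at 3 μg/kg with an adjusted p of 0.000194. It was 1.99 ± 0.22 at 10 μg/kg (adjusted p 4.26e-09) and 3.53 ± 0.23 at 30 μg/kg (adjusted p 1.56e-15), an 11.6-fold rise. Ctss was the sole member called at 1 and at 3 μg/kg, where 2.78% and 6.75% of all genes tested were called. The sample titles number the mice in 2 blocks, and within the first block of 19 libraries alone Ctss was not called at 1 μg/kg (log2 fold change 0.98, adjusted p 0.163) or at 3 μg/kg (0.90, adjusted p 0.143). Leaving out replicate 1 of the 30 μg/kg group gave Ctss a log2 fold change of 3.74 at that dose.

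**Figure D1:**
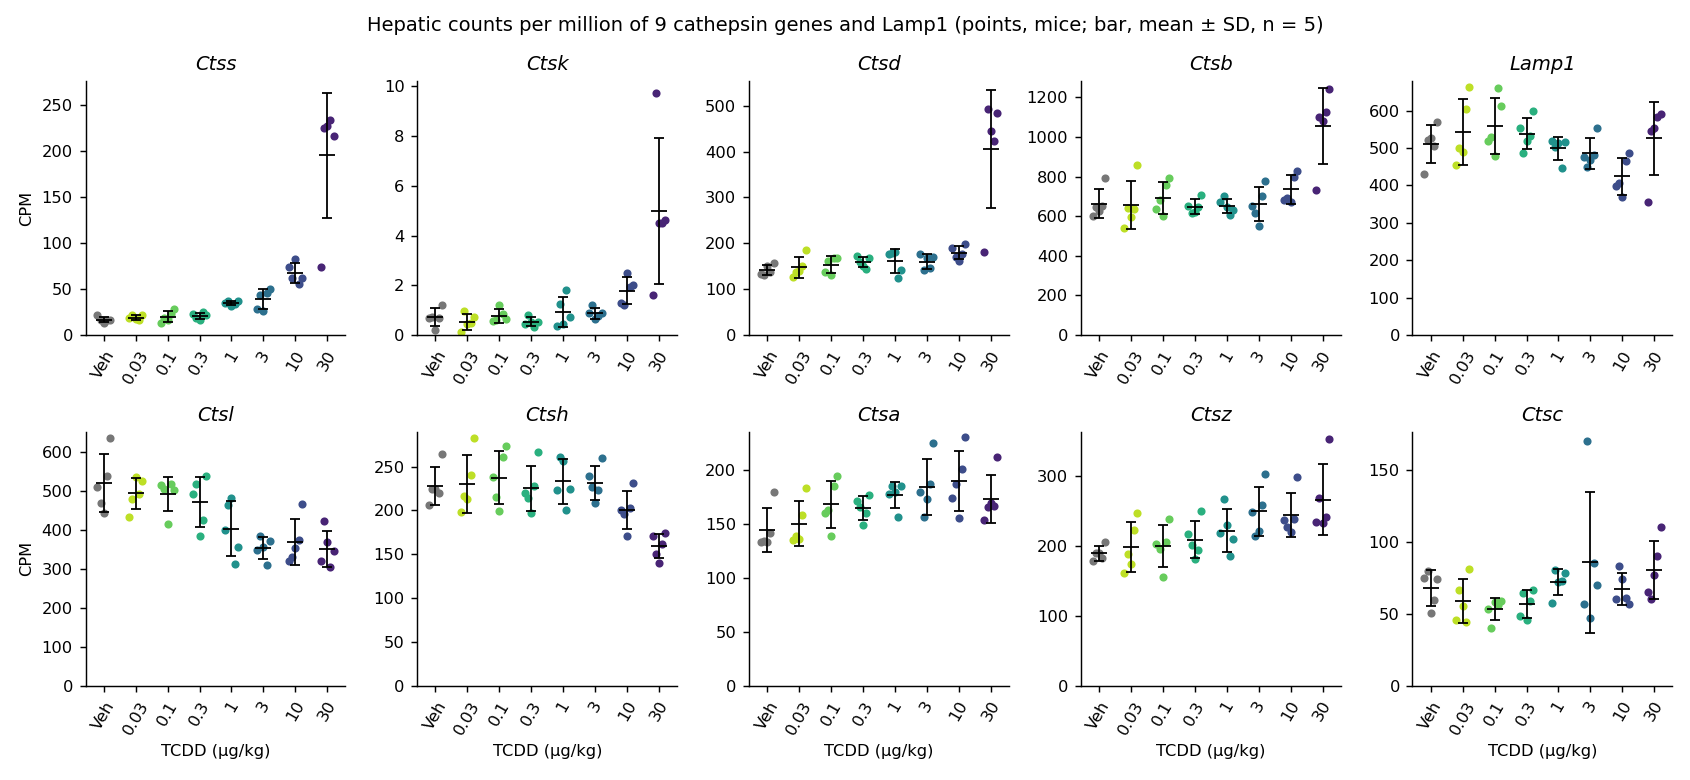
CPM (y axis) of the 10 genes by TCDD dose in μg/kg (x axis, Veh is vehicle), with points for mice and bars for the mean ± SD of 5. Ctss climbed from 1 μg/kg, Ctsd, Ctsk and Ctsb were highest at 30 μg/kg, where 1 mouse had the lowest value of its dose in each of these 4 genes, and Ctsl and Ctsh were lower at 30 μg/kg than in vehicle.

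Ctsk was the scarcest member and had the next largest fold. Cathepsin K is a collagen-degrading cysteine protease best known from osteoclasts. Counts of Ctsk in the vehicle mice were 14, 12, 3, 10 and 17, which is 0.697, 0.746, 0.194, 0.700 and 1.22 CPM. At 10 μg/kg Ctsk had 1.30, 1.20, 2.50, 1.94 and 2.00 CPM, where 4 of 5 mice exceeded the vehicle range. Counts of Ctsk at 30 μg/kg were 35, 234, 118, 114 and 110, which is 1.62, 9.73, 4.50, 4.53 and 4.64 CPM. All 5 of these mice lay above all vehicle mice, with replicate 1 lowest and replicate 2 far above the other 3. Such a separation at 30 μg/kg was found in 19.7% of all genes tested. The log2 fold change of Ctsk was 1.33 ± 0.44 (SE) at 10 μg/kg (adjusted p 0.0174) and 2.81 ± 0.43 at 30 μg/kg (adjusted p 8.14e-07). Its call at 10 μg/kg was lost without vehicle replicate 3, where the log2 fold change was 1.09, without replicate 3 of that dose, where it was 1.17, and in either block of title numbers alone, where it was 1.15 and 1.16. Counts this low make the Ctsk values the least precise of the 10.

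Ctsd, the aspartic endopeptidase, was not called at any dose up to 10 μg/kg and rose at 30 μg/kg. Its CPM in vehicle mice was 133, 131, 150.4, 137 and 157. At 10 μg/kg it was 190.0, 170.1, 162, 178 and 199 CPM. These 5 mice all lay above the vehicle mice, as was so for 12.9% of all genes tested at that dose. The log2 fold change of 0.34 ± 0.15 (SE) had an adjusted p of 0.0836. Ctsd at 30 μg/kg had 182, 492, 444, 424 and 484 CPM. Here 4 mice had 424 to 492 CPM, far above every mouse of every other dose, while replicate 1 lay within the 10 μg/kg range of 162 to 199. The log2 fold change of Ctsd at 30 μg/kg was 1.52 ± 0.16 with an adjusted p of 1.50e-10, a 2.86-fold rise, and it was 1.70 without replicate 1. Exons of Ctsd share 34.4% of their bases with another gene model on the same strand, Gm49369, and reads there count for neither gene.

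Ctsb encodes cathepsin B, a cysteine protease with both endopeptidase and dipeptidyl carboxypeptidase activity, and had the most reads of the 10 in vehicle. In the vehicle mice Ctsb had 604, 648, 627, 651 and 792 CPM. Its mean stayed between 649 and 735 CPM from 0.03 to 10 μg/kg. Then Ctsb had 735, 1101, 1082, 1125 and 1242 CPM at 30 μg/kg, so that 4 of the 5 mice exceeded every vehicle mouse and replicate 1 did not. This gave a log2 fold change of 0.67 ± 0.12 (SE) with an adjusted p of 9.51e-06, a 1.59-fold rise close to the fold threshold. It fell under that threshold without replicate 5 of the dose (0.58) and in the first block alone (0.54), and was 0.77 without replicate 1.

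At 30 μg/kg, then, 4 of the 10 members were called, all higher than vehicle (Ctsb, Ctsd, Ctsk and Ctss), where 42.1% of all genes tested were called and 23.2% were called higher. At 10 μg/kg 2 members were called, Ctsk and Ctss, where 21.8% of all genes were called. No member was called at 0.03, 0.1 or 0.3 μg/kg by edgeR, DESeq2 or limma, where edgeR called 0.0195%, 0.0976% and 0.468% of all genes, and none of the 10 had an unadjusted p under 0.05 there in edgeR. The median log2 fold change of the 10 members at 30 μg/kg was 0.38, and that of all genes tested was 0.03. The number of these calls moved with the scaling. When CPM used the total counts of a library without TMM, the median of all genes at 30 μg/kg was 0.52 and 7 members were called, all higher. Ctsa (0.76), Ctsc (0.73) and Ctsz (0.98) joined the 4, whereas Ctsh (-0.03), Ctsl (-0.06) and Lamp1 (0.54) were not called. The share of all genes called under this scaling was not counted, so the 7 cannot be set against it.

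**Figure D2:**
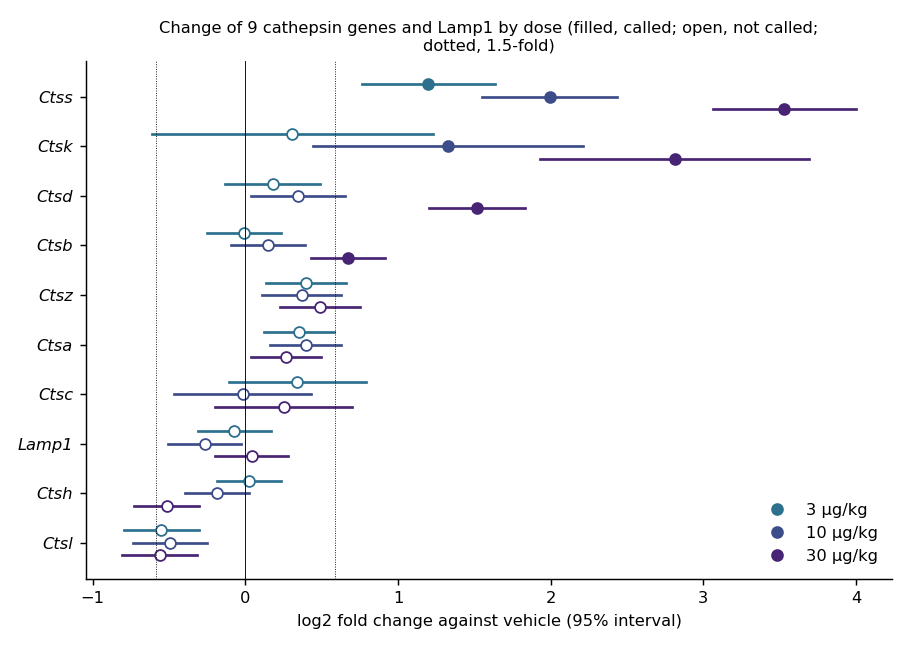
Log2 fold change against vehicle (x axis) of each gene (y axis) at 3, 10 and 30 μg/kg TCDD, with 95% intervals from edgeR, filled points for called genes and dotted lines at a fold of 1.5. Ctss was called at all 3 of these doses, Ctsk at 10 and 30 μg/kg, Ctsd and Ctsb at 30 μg/kg, and the points of Ctsl and Ctsh at 30 μg/kg lay on the lower side at -0.56 and -0.52.

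The step from 10 to 30 μg/kg was also tested directly, by comparing the means of these 2 doses within the fit to all 40 libraries. Ctsd rose by a log2 fold of 1.17 ± 0.15 (SE, adjusted p 3.08e-07), Ctsk by 1.49 ± 0.40 (adjusted p 0.00361) and Ctss by 1.54 ± 0.21 (adjusted p 5.95e-07). These 3 were the members called in this step, where 21.1% of all genes were called. Within the first block of title numbers, with 2 mice at each of these doses and replicate 1 among them, none of the 3 was called, with log2 fold changes of 0.91 ± 0.29 for Ctsd (adjusted p 0.0822), 2.19 ± 0.82 for Ctsk (adjusted p 0.132) and 1.14 ± 0.37 for Ctss (adjusted p 0.0880). In the second block, with 3 mice at each dose, all 3 were called, at 1.30 ± 0.15, 1.06 ± 0.35 and 1.73 ± 0.20. In the fit to all 40 libraries, Ctsb had a log2 fold change of 0.52 ± 0.12 from 10 to 30 μg/kg with an adjusted p of 0.000743, under the fold threshold. From 3 to 10 μg/kg, where 6.77% of all genes were called, Ctss alone among the members was called, at 0.79 ± 0.21 (adjusted p 0.0121), and it was not called without replicate 3 of the 3 μg/kg group. Without replicate 1 at 30 μg/kg, 4 members were called in the step from 10 to 30 μg/kg, and the share of all genes was not counted there.

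The remaining cysteine endopeptidase, Ctsl, was lower at the higher doses. Cathepsin L is a broad-acting endopeptidase. Ctsl had 509.8, 469.8, 442, 537 and 635 CPM in vehicle mice. The 5 mice at 3 μg/kg had 349, 385, 356, 309.8 and 371 CPM. At 30 μg/kg they had 319, 422, 367, 305 and 344 CPM, so all 5 mice at each of these 2 doses lay below all vehicle mice, while 1 of 5 at 10 μg/kg did not. Of all genes tested, 4.49% had all 5 mice at 3 μg/kg below all vehicle mice, and 17.9% had all 5 at 30 μg/kg below them. The log2 fold change of Ctsl was -0.55 ± 0.12 (SE) at 3 μg/kg (adjusted p 0.00189), -0.49 ± 0.12 at 10 μg/kg (adjusted p 0.00154) and -0.56 ± 0.12 at 30 μg/kg (adjusted p 0.000148). None reached a fold of 1.5, so Ctsl was not called. Its change at 30 μg/kg crossed the threshold when any of 4 libraries was left out, with values from -0.66 to -0.60. Its exons share 26.9% of their bases with an antisense model, Gm47123, and a processed pseudogene, Gm49230. With no strand kept, reads there count for none of these genes.

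Among the exopeptidases, Ctsh had lower and Ctsz and Ctsa higher means at 30 μg/kg with folds under 1.5. Ctsc had no adjusted p under 0.05 in the comparisons of each dose with vehicle. Cathepsin H is a cysteine aminopeptidase. Ctsh had 206, 224, 224, 220.3 and 265 CPM in vehicle mice and 171, 151, 140.0, 161.4 and 174 CPM at 30 μg/kg. The groups did not overlap, and the log2 fold change of -0.52 ± 0.11 (SE) had an adjusted p of 6.84e-05 without reaching a fold of 1.5. Of all genes tested, 17.9% had all 5 mice at 30 μg/kg below all vehicle mice, as Ctsh and Ctsl did, and 19.7% had them above, as Ctss, Ctsk, Ctsd and Ctsz did.

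Ctsz encodes a carboxypeptidase also called cathepsin X. In vehicle mice Ctsz had 179, 191, 190.4, 183 and 206 CPM, and at 30 μg/kg it had 235, 269, 233, 241 and 354 CPM. All 5 mice lay above the vehicle range at 3, 10 and 30 μg/kg, as was so for 5.23%, 12.9% and 19.7% of all genes tested. As a log2 fold change this was 0.40 ± 0.13 (SE) at 3 μg/kg (adjusted p 0.0413), 0.37 ± 0.13 at 10 μg/kg (adjusted p 0.0261) and 0.49 ± 0.13 at 30 μg/kg (adjusted p 0.00140). Ctsz thus differed from vehicle at 3 doses without reaching a fold of 1.5 at any.

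Ctsa encodes protective protein, the serine carboxypeptidase that also stabilizes neuraminidase and β-galactosidase. Ctsa had 133, 134, 134, 141 and 179.9 CPM in vehicle mice. It had 174, 187, 156, 201 and 230.2 CPM at 10 μg/kg and 154, 166, 169, 167 and 212 CPM at 30 μg/kg, overlapping the highest vehicle mouse at both doses. As a log2 fold change Ctsa had 0.35 ± 0.11 (SE) at 3 μg/kg (adjusted p 0.0399), 0.39 ± 0.11 at 10 μg/kg (adjusted p 0.00655) and 0.27 ± 0.11 at 30 μg/kg (adjusted p 0.0445), none of which reached a fold of 1.5. Exons of Ctsa share 17.4% of their bases with Neurl2 and Pltp on the other strand.

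Ctsc encodes dipeptidyl peptidase 1, which activates the granule proteases of leukocytes. It ranged from 50.2 to 79.6 CPM in vehicle mice and from 60.4 to 110.4 CPM at 30 μg/kg, with a log2 fold change of 0.25 ± 0.22 (SE, 95% interval -0.20 to 0.70, adjusted p 0.348). A single mouse at 3 μg/kg, replicate 2, had 169.7 CPM of Ctsc where the other 4 had 47.3 to 85.1. No dose differed from vehicle in Ctsc at an adjusted p under 0.05.

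Lamp1, the membrane gene, had 430.4, 522, 527, 506 and 569.6 CPM in vehicle mice. It had 398, 406, 368, 465 and 486 CPM at 10 μg/kg, and 355, 546, 554, 583 and 592 CPM at 30 μg/kg. Replicate 1 at 30 μg/kg was the lowest of all 40 libraries in Lamp1, and the other 4 mice of that dose lay at or above the middle of the vehicle range. The log2 fold change was -0.27 ± 0.12 (SE, adjusted p 0.0801) at 10 μg/kg and 0.04 ± 0.12 at 30 μg/kg, with a 95% interval of -0.20 to 0.28 and an adjusted p of 0.787. The sign at 30 μg/kg turned in several alternatives. The step from 10 to 30 μg/kg had a log2 fold change of 0.31 ± 0.12 (adjusted p 0.0415), under the fold threshold.

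A linear slope over the ordered dose steps, from 0 for vehicle to 7 for 30 μg/kg, had an adjusted p under 0.05 in 9 of the 10 members, where 57.7% of all genes tested did. Lamp1 was the exception, with a slope of -0.03 ± 0.01 log2 units per step (SE, adjusted p 0.126). Slopes were highest in Ctss, at 0.47 ± 0.04 per step (adjusted p 2.23e-14), and Ctsk, at 0.40 ± 0.05 (adjusted p 4.76e-08). The slope of Ctsd was 0.16 ± 0.03 per step. Negative slopes were found in Ctsl, at -0.09 ± 0.01 (adjusted p 2.56e-07), and Ctsh, at -0.05 ± 0.01 (adjusted p 0.00148). Ctsc had the weakest of the 9, with an adjusted p of 0.0400.

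The ratio of each cathepsin to Lamp1 within a library depends little on how libraries are scaled. At 30 μg/kg the log2 ratio to Lamp1 changed by 3.41 ± 0.20 (SE) for Ctss, 2.55 ± 0.40 for Ctsk, 1.41 ± 0.11 for Ctsd and 0.63 ± 0.08 for Ctsb in limma's test. These 4 were called, with adjusted p-values of 3.84e-17, 1.27e-06, 1.16e-13 and 1.59e-08, where 40.6% of all genes were called in their ratio to Lamp1 and 21.7% were called higher. The ratio of Ctsb to Lamp1 changed alike in all 5 mice, by 0.67, 0.63, 0.59, 0.57 and 0.69, replicate 1 included. For Ctsd the 5 changes were 0.88, 1.70, 1.53, 1.39 and 1.56, with replicate 1 lowest but above the 10 μg/kg range of 0.46 to 0.78. The ratio of Ctsh to Lamp1 changed by 0.11, -0.69, -0.82, -0.69 and -0.60, so replicate 1 went the other way from the rest. Its mean change of -0.54 ± 0.11 and that of Ctsl, -0.58 ± 0.13, stayed just under the fold threshold, with adjusted p-values of 4.96e-05 and 0.000305. Without replicate 1 at 30 μg/kg, 6 members were called in their ratio to Lamp1, and the share of all genes was not counted there.

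At 10 μg/kg 5 cathepsins were called higher relative to Lamp1, where 25% of all genes were called and 21.2% were called higher. These were Ctss (2.26 ± 0.20), Ctsk (1.57 ± 0.40), Ctsa (0.66 ± 0.09), Ctsz (0.63 ± 0.10) and Ctsd (0.61 ± 0.11), as log2 changes ± SE. The median gene changed by 0.28 relative to Lamp1 at this dose, so each of these values includes the lower Lamp1 level of the 10 μg/kg mice. The median gene changed by 0.00 relative to Lamp1 at 30 μg/kg.

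**Figure D3:**
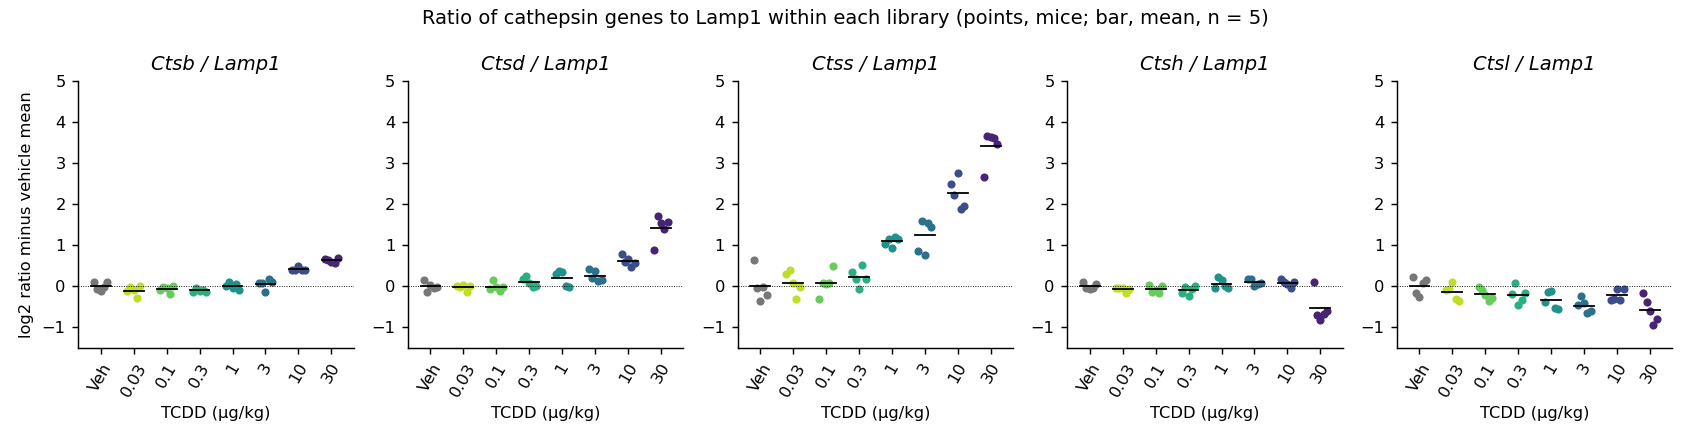
Log2 ratio of 5 cathepsin genes to Lamp1 in the same library, minus its vehicle mean (y axis), by TCDD dose in μg/kg (x axis), with points for mice and bars for means of 5. Mean changes at 30 μg/kg were 0.63 for Ctsb, 1.41 for Ctsd and 3.41 for Ctss, against -0.54 for Ctsh and -0.58 for Ctsl.

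Reads of the 10 genes together were 2483 ± 239 CPM in vehicle and 3220 ± 546 CPM at 30 μg/kg (SD, n = 5), and stayed between 2451 and 2577 CPM on average at the doses between. Their share of all assigned counts rose from 0.230% ± 0.0129 to 0.421% ± 0.0806. This share takes no TMM scaling, whose mean factor was 0.928 in vehicle and 1.31 at 30 μg/kg, so it rose by more than the summed CPM. The makeup of these reads shifted. Ctsl supplied 20.9% of them in vehicle and 11.1% at 30 μg/kg, Ctsd 5.72% and 12.3%, Ctss 0.686% and 5.88%, and Ctsb 26.7% and 32.8%. Lamp1 supplied 20.6% in vehicle and 16.3% at 30 μg/kg.

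Levels were compared between genes per kilobase of exon (RPKM). In vehicle Lamp1 was highest at 191 RPKM, followed by Ctsz at 132 and Ctsb at 109.7, then Ctsl at 79.9, Ctsd at 60.2, Ctsh at 50.6 and Ctsa at 30.6 RPKM. Ctss at 12.4 and Ctsc at 11.7 RPKM came next, and Ctsk was last at 0.470 RPKM. Ranges over the 5 mice overlapped between neighbours in this order for 3 pairs, Ctsz with Ctsb, Ctsd with Ctsh and Ctss with Ctsc. The order at 30 μg/kg was Lamp1 at 197, Ctsz at 185, Ctsb at 175, Ctsd at 172, Ctss at 144, Ctsl at 54.2, Ctsa at 36.8, Ctsh at 35.4, Ctsc at 13.9 and Ctsk at 3.31 RPKM. Each of the first 5 overlapped the next gene in that order, as did Ctsa and Ctsh. Ctss had moved from the eighth place to the fifth, and Ctsl from the fourth to the sixth. These lengths include exon bases shared with other genes, whose reads are not counted. Over the unshared bases alone, an alternative chosen after seeing the data, Ctsd came first at 30 μg/kg with 263 RPKM, followed by Lamp1 with 217, Ctsb with 200.3 and Ctsz with 186 RPKM, so the order of the first 4 depended on the length used.

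The genes most like each called member were sought among all genes with a symbol and a mean of at least 100 counts, by the root mean square difference in log2 CPM from the vehicle mean over the 40 libraries. Nearest to Ctss were Laptm5 (0.312), a lysosomal membrane gene of blood cells, Itgb2 (0.319), the β2 integrin of leukocytes, and Slc15a3 (0.327), a lysosomal peptide transporter. Nearest to Ctsd were Fth1 (0.150), the ferritin heavy chain, Psap (0.163), the precursor of the saposins that activate lysosomal lipid hydrolases, and Hacd3 (0.164), a fatty acid elongation enzyme. Ctsb lay nearest to Atp6ap1 (0.109) and Atp6v1e1 (0.114), both of the vacuolar proton pump, and to Mdh2 (0.127), mitochondrial malate dehydrogenase. Ctsk lay nearest to Vim (0.542), vimentin, Gltp (0.544), a glycolipid transfer protein, and Pdgfra (0.551), a growth factor receptor of mesenchymal cells. The closest other member was farther off in each case, at 0.827 for Ctss (Ctsk), 0.346 for Ctsd (Ctsb), 0.236 for Ctsb (Ctsz) and 0.806 for Ctsk (Ctsd). Genes closer than that member numbered 248, 200, 378 and 342 in the same order, among 9307 searched (9308 for Ctsk). With so many genes searched and so few members, a closer gene was likely from the outset. Ctsk and Ctss are close neighbours on chromosome 3, with 1 gene model, Gm40096, between them in the RefSeq order.

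Beyond the members, 90 other lysosomal genes in 7 lists were counted at 30 μg/kg, of which 83 passed the low-count filter. Of these, 32 were called higher and 7 lower than vehicle, with a median log2 fold change of 0.44, where 23.2% and 18.9% of all genes tested were called higher and lower. Among other lysosomal proteases 4 of 9 tested were called higher and none lower. Lgmn, legumain, which cleaves after asparagine and processes several cathepsins, went from 38.5 to 189.4 CPM on average, a log2 fold change of 2.30 ± 0.16 (SE). Prcp, a carboxypeptidase, had 1.27 ± 0.16. Tpp1, tripeptidyl peptidase 1, had 0.59 ± 0.10 and Scpep1, a serine carboxypeptidase, 0.64 ± 0.11. Of the 7 listed cystatins, inhibitors of cysteine cathepsins, 2 had enough counts to test. Cstb, which encodes the intracellular cystatin B, was called higher at 1.09 ± 0.14, and Cst3, the secreted cystatin C, had -0.00 ± 0.12.

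The vacuolar proton pump, which acidifies lysosomes, had 9 of 16 subunit genes called higher at 30 μg/kg and none lower, with a median log2 fold change of 0.62. At that dose 23.2% of all genes tested were called higher and 18.9% lower. Atp6v0d2, a subunit of macrophages and osteoclasts, had 2.76 ± 0.43 (SE), and Atp6v1a, the catalytic subunit, had 1.17 ± 0.13. The lowest of those called were Atp6v1c1 at 0.62 ± 0.08 and Atp6v1d at 0.63 ± 0.09. At 10 μg/kg 1 of the 16 was called, as higher, where 13.6% of all genes tested were called higher.

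Of 30 other hydrolases and activators, 13 were called higher and 3 lower at 30 μg/kg, with a median of 0.52. For this list and those that follow, the shares over all genes tested were 23.2% called higher and 18.9% lower. Idua, the α-L-iduronidase, had a log2 fold change of 1.96 ± 0.21 (SE) and Hexa, the α subunit of β-hexosaminidase, 1.66 ± 0.14. Arsa, arylsulfatase A, was called lower at -1.18 ± 0.13, as was Gm2a, the GM2 activator, at -0.78 ± 0.17. Of 13 other lysosomal membrane genes, 2 were called higher and 1 lower, with a median of 0.11. Cd63, a tetraspanin of late endosomes, went from 3.99 to 60.6 CPM, a log2 fold change of 3.92 ± 0.24, and Laptm5 had 2.96 ± 0.23. Slc17a5, the sialic acid exporter, was called lower at -0.65 ± 0.11. Among 9 sorting genes 2 were called higher, Igf2r (1.38 ± 0.13) and M6pr (0.71 ± 0.08), which encode the mannose 6-phosphate receptors, and 3 lower, with Sort1, sortilin, at -1.03 ± 0.20 and Gga2, an adaptor of the trans-Golgi network, at -0.84 ± 0.14. Of the 4 MiT/TFE factors Tfec, found in macrophages, was called higher at 2.39 ± 0.31, and Tfeb had -0.46 ± 0.16 without reaching a fold of 1.5.

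**Figure D4:**
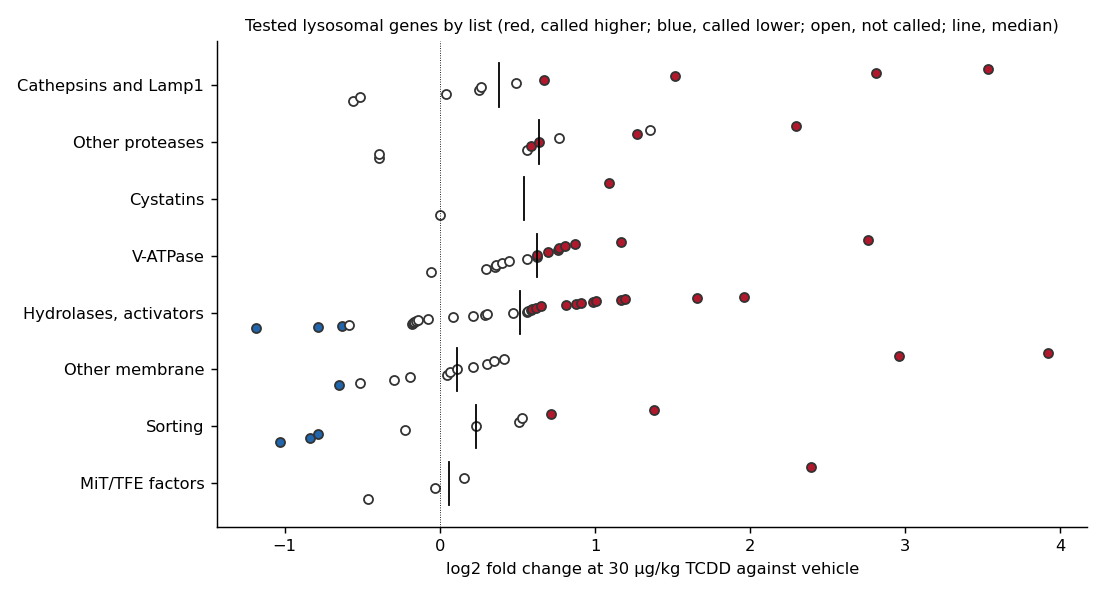
Log2 fold change at 30 μg/kg TCDD against vehicle (x axis) of each tested lysosomal gene, by list (y axis), with red for called higher, blue for called lower, open for not called, and a line at each list's median. The V-ATPase median was 0.62 with no subunit called lower, while the sorting list had 2 genes called higher and 3 called lower. Over all genes tested, 23.2% were called higher and 18.9% lower.

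Markers of several cell types were called higher at doses where members rose. All 12 macrophage markers were called higher at 30 μg/kg, with a median log2 fold change of 2.50, and 6, 8 and 11 of the 12 were called higher at 1, 3 and 10 μg/kg, where 2.15%, 4.53% and 13.6% of all genes tested were. Their summed CPM was 235 to 326 in vehicle, 445 to 493 at 1 μg/kg, 361 to 670.3 at 3 μg/kg, 631 to 907 at 10 μg/kg and 836 to 2094 at 30 μg/kg, and no marker was at 0 in any group. For Ctss and for the summed macrophage markers, 1 μg/kg was the lowest dose at which all 5 mice exceeded every vehicle mouse. The same held for the summed dendritic cell markers, at 4.98 to 6.28 CPM against 1.75 to 4.68 in vehicle. It also held for the summed other lysosomal proteases, at 316 to 336 CPM against 270 to 293. Gene by gene, however, 1 of 5 dendritic markers and 0 of 9 tested other proteases were called higher at 1 μg/kg. Among single genes tested, 4.33% had all 5 mice of that dose above all vehicle mice, and no such share was counted for sums. Replicate 1 at 30 μg/kg held 836 CPM of macrophage markers, within the 10 μg/kg range, where the other 4 held 1415 to 2094. The part of macrophages in the values of Ctss, Ctsd, Ctsb and the other genes called higher was not tested.

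Markers of stellate cells, which make collagen in injured liver, were called higher in 6 of 7 at 30 μg/kg. Their summed CPM was 139 to 224 in vehicle, 174 to 203 at 3 μg/kg, 325 to 413 at 10 μg/kg and 440.4 to 1000.4 at 30 μg/kg, with replicate 1 lowest and replicate 2, the mouse with the most Ctsk, highest. None of the 7 was at 0, and their part in the Ctsk values was not tested. Monocyte markers were called higher in 6 of 6 at 30 μg/kg (summed CPM 4.48 to 7.26 in vehicle and 20.4 to 52.4 at 30 μg/kg), dendritic cell markers in 3 of 5 (1.75 to 4.68 and 12.6 to 14.7), and B cell markers in 4 of 4 (3.15 to 4.27 and 5.91 to 12.4). T and NK cell markers were called higher in 3 of the 4 tested (1.74 to 3.36 and 3.16 to 7.04), cholangiocyte markers in 4 of 5 with 1 called lower (37.2 to 48.4 and 67.5 to 333), and endothelial markers in 4 of 6 (135 to 182 and 242 to 328). Of 5 neutrophil markers 2 had enough counts to test and both were called higher (0.140 to 1.14 and 7.13 to 27.1), with Ly6g and Mpo at 0 in vehicle. Hepatocyte markers were called lower in 7 of 8. Of all genes tested, 23.2% were called higher and 18.9% lower at 30 μg/kg. Most of these lists were higher at 30 μg/kg and the hepatocyte list was lower. What each cell type contributed to a member's level was not tested.

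**Figure D5:**
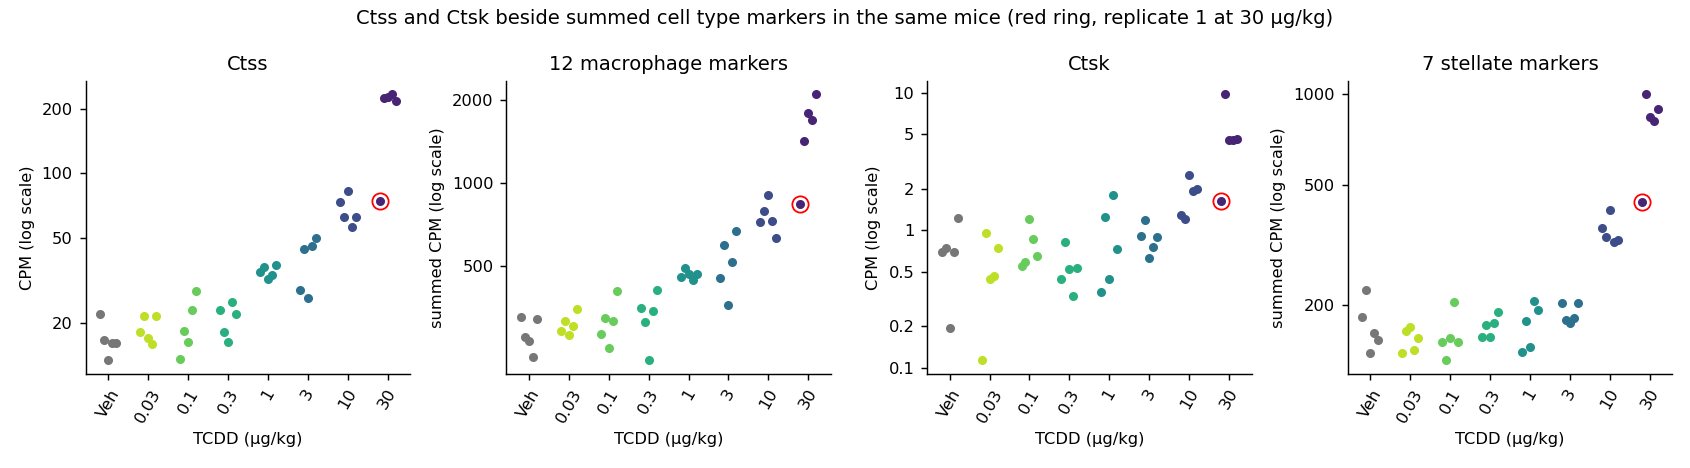
Ctss and Ctsk in CPM beside the summed CPM of 12 macrophage and 7 stellate markers in the same mice (y axes, log scale) by TCDD dose in μg/kg (x axes), with a red ring around replicate 1 at 30 μg/kg. That mouse had 73.9 CPM of Ctss and 836 CPM of macrophage markers, the lowest of its dose in both.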

How the data were processed

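RNA was extracted from frozen liver with TRIzol, libraries were made with an NEB Ultra II kit, and 40 libraries of 8 groups of 5 mice were grouped by the dose in the labels. Per the labels, the submitters' processing notes name FastQC 0.11.7, Trimmomatic 0.39 and STAR 2.7.3a and both GRCm39 and mm10, so no coordinates were taken from the files. The authors deposited STAR raw counts per gene and library, of which the unstranded column was used, and a table of normalized log2 values that served as an alternative. The log2 table was already on a log scale, so the pseudocount planned for it was not added. First-strand counts were 50.0% to 50.3% of both strands, and 71.3% to 80.8% of read counts were assigned to genes. Reads over exons of more than 1 gene count for none. No 2 replicates matched within sampling noise (chi-square over its degrees of freedom of at least 10.2 in 80 pairs).

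Counts were filtered (filterByExpr), scaled (TMM) and fitted with 1 mean per dose by edgeR 4.0.16 (quasi-likelihood, R 4.3.3) over all 40 libraries, with Benjamini-Hochberg adjustment over 15373 genes. A gene was called at an adjusted p under 0.05 and a fold of at least 1.5. The dose trend was a slope over the ordered steps, called on its adjusted p. Ratios to Lamp1 were tested by limma 3.58.1 on log2 CPM with a prior count of 2. Alternatives included DESeq2 1.42.0. The edgeR and limma fits were tested on simulated data. Symbols came from GENCODE M21 for 52083 of 55359 identifiers, as did exon lengths, and promoters from RefSeq on GRCm38.p6. Members named in full were those of the set, and from each other lysosomal list up to 2 called genes with the highest and 2 with the lowest log2 fold change at a mean of at least 100 counts were named. Genes named outside that rule were chosen after their values were seen. The members and lists were chosen with earlier results of these data known. Each library is 1 mouse.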

Additional observations from a re-analysis of the deposited data

Results flagged for a closer look

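Of 80 combinations of gene and dose group, 10 held a mouse whose gap to the next one was large against the range of its 5 mice by Dixon's criterion, which chance alone meets in about 1 of 20 groups. At 30 μg/kg replicate 1 stood apart below the rest in Ctsd (182 CPM, others 424 to 492), Ctss (73.9 CPM, others 216 to 233) and Lamp1 (355 CPM, others 546 to 592). Replicate 5 of the same dose stood apart above the rest in Ctsa (212 CPM, others 154 to 169). In vehicle, replicate 5 stood above the rest in Ctsa (179.9 CPM, others 133 to 141) and in Ctsb (792 CPM, others 604 to 651). Replicate 5 at 10 μg/kg was high in Ctsz (299 CPM, others 219.9 to 239). At 1 μg/kg replicate 4 was low in Ctsa (156 CPM, others 178 to 185) and in Lamp1 (446 CPM, others 503 to 518). At 0.1 μg/kg replicate 3 was low in Ctsl (415 CPM, others 503 to 518).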

How the results depend on the processing

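With no fold threshold 4 members were called at 3 μg/kg, 5 at 10 μg/kg, 8 at 30 μg/kg (6 of them higher) and 6 in the step from 10 to 30 μg/kg, and 62 of the other lysosomal genes at 30 μg/kg. With total-count scaling 7 members were called at 30 μg/kg and 5 in the step from 10 to 30 μg/kg, and the log2 fold changes at 10 μg/kg of Ctsc (0.21) and Ctsh (0.0211) changed sign. With a mean of at least 50 counts 1 member was called at 10 μg/kg and Ctsc had 0.00418 there, and with a stranded count column 1 was called and Ctsc had 0.0328. With block and position as covariates, an alternative added after seeing the data, 2 members were called at 3 μg/kg, Ctsc at 10 μg/kg had 0.0502 and Lamp1 at 30 μg/kg had -0.0180. In the first block alone 0 members were called at 1 and at 3 μg/kg, 1 at 10 μg/kg, and 0 in the steps from 3 to 10 and from 10 to 30 μg/kg. Ctsc there had 0.0542 at 10 μg/kg and -0.14 at 30 μg/kg, and Lamp1 had -0.14 at 30 μg/kg. In the second block alone 2 members were called at 3 μg/kg, 1 at 10 μg/kg, 0 in the step from 3 to 10 μg/kg, and 3 in their ratio to Lamp1 at 10 μg/kg. Leaving out each mouse in turn gave 1 to 2 members called at 3 μg/kg, 1 to 3 at 10 μg/kg, 3 to 5 at 30 μg/kg and 0 to 1 in the step from 3 to 10 μg/kg, a Ctsc log2 fold change of -0.11 to 0.0461 at 10 μg/kg, and a Lamp1 log2 fold change of -0.0279 to 0.15 at 30 μg/kg. The share of all genes called was not counted in these alternatives, so their member counts stand without it. The causes of these differences were not tested, except that the blocks hold fewer mice. No paired analysis was possible because replicate numbers follow the order of deposit and pair no mice. Depth limits Ctsk most, which had 3 to 17 counts per vehicle library, and p-values measure the spread between mice of 1 study.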

Other observations

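The second block of title numbers holds 3 mice per dose, or 2 in vehicle and at 1 and 3 μg/kg. Title numbers divisible by 3 in this block, from 36 to 54, fell on replicate 5 in 6 doses (0.03, 0.1, 0.3, 3, 10 and 30 μg/kg), a choice of mice made after seeing the data, and this mouse was the highest of its 5 mice in 6 of 6 doses for Ctsa, Ctsb, Ctsh and Ctsz, in 5 for Lamp1, in 4 for Ctsc, in 3 for Ctss, in 2 for Ctsd and Ctsl, and in 0 for Ctsk. Ctsb in these 6 mice was 859, 791, 707, 777, 827 and 1242 CPM in order of dose. The percentage of read counts over no gene exon was the lowest of its dose in each of these 6 libraries. It was 3.58, 3.51, 4.43, 3.97, 3.34 and 4.33 in order of dose, where the median of all 40 libraries was 5.54. The share of all genes highest in these mice was not counted, and a link between these values was not tested. What the title numbers mark is not given in the sources used here.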
